A study of Mus musculus with 12 samples.

Results

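PROSER1 KO mouse embryonic stem cells (mESC) were compared with WT mESC by RNA sequencing. The comparison rested on 4 of the 12 libraries of the series, 2 from KO and 2 from WT, taken by genotype and stage as the labels and column names give them. The other 8 libraries, from KO+Rescue mESC and from all 3 genotypes after 2 days of differentiation in N2B27, entered the shared estimate of the spread and are otherwise given only beside single results. All lines came from mESC derived from blastocysts of Tet2 fl/fl animals, so that KO and WT both carry the floxed Tet2 allele. They were grown without feeder cells on gelatin, in medium with serum, LIF, the MEK inhibitor PD0325901 and the GSK3 inhibitor CHIR99021. The methods time the mESC harvest for RNA to the first plating in N2B27, whose listed components hold no serum, LIF or either inhibitor. The KO line was grown from a single edited cell, and the effect of the genotype and the history of this clone cannot be told apart. The sources call the 2 libraries of a genotype biological replicates but do not state how their cultures were kept apart. A p-value here speaks of the spread between such libraries, part of which may be technical. Of 35976 genes in the table, 15335 averaged 10 or more normalised counts across the 12 libraries and were tested.

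PROSER1 binds the TET enzymes, which oxidise methylated cytosine in DNA and so take part in its demethylation. DNA methylation holds imprinted genes and many germline genes silent, and mESC lose part of it when MEK and GSK3 are inhibited. In mESC, LIF acts through STAT3 to sustain self-renewal, while FGF acts through ERK to prepare the cells for differentiation. In medium with the MEK inhibitor, this ERK route is damped in both genotypes.

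The Cas9 guide that made the KO line is shown with the NGG motif it needs in capitals, because its position sets what the RNA can report on the edit.
Proser1 guide: gtgctggatgaaattcgaaAGG
The guide matched the plus strand of exon 1 of Proser1 at chr3:53371720-53371738 (GRCm39), inside the coding sequence and at the exon's 3′ end. The expected cut lay after coding base 40. Small edits at such a site need not remove the transcript, and Proser1 had 576 and 502 in KO against 889 and 550.5 in WT (normalised counts). The groups overlapped in part of their range and the difference did not pass the test (95% interval of the log2 difference -0.81 to 0.05), so the RNA level is no check of the KO label.

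At an adjusted p under 0.05 (limma over all 12 libraries, Benjamini-Hochberg over all tested genes), 1443 genes were called, which is 9.41% of those tested. Of these, 487 were higher (3.18%) and 956 lower (6.23%) in KO. KO and WT libraries did not overlap for 58.9% of tested genes, so separation of 2 against 2 libraries alone is no sign of a difference. The calls depended on single libraries. Leaving out KO replicate A gave 634 calls and leaving out KO replicate B 383, while 449 were made without WT replicate A and 3218 without WT replicate B. The spread of KO and WT mESC alone gave 166 calls, of which 160 were also called as reported. In all 4 leave-one-out fits 261 genes kept their call, 57 higher and 204 lower, and most of the genes named below come from these. When libraries were scaled to equal totals, which moved the median log2 change of all tested genes to -0.25 in place of -0.04, 229 genes were higher and 1371 lower in KO.

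**Figure D1:**
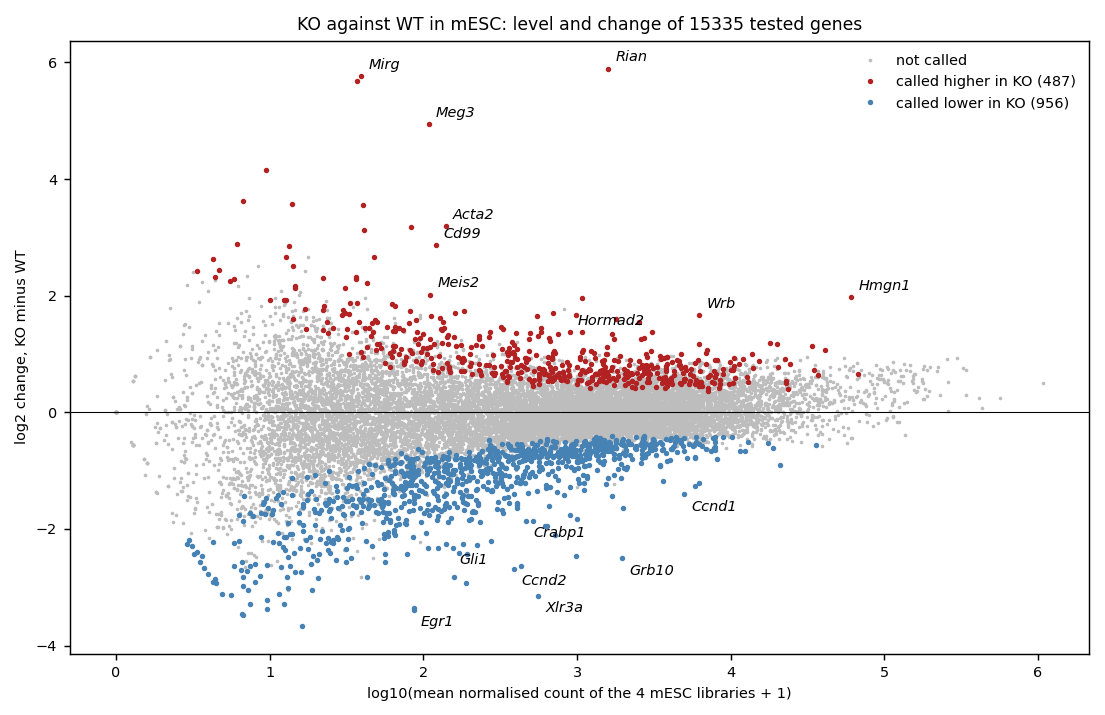
Log2 change of each tested gene (vertical axis, KO minus WT) against the log10 mean normalised count of the 4 mESC libraries (horizontal axis), with called genes in colour. Rian, Mirg, AF357359 and Meg3 are the highest points, and Egr1 is among the lowest.

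**Figure D2:**
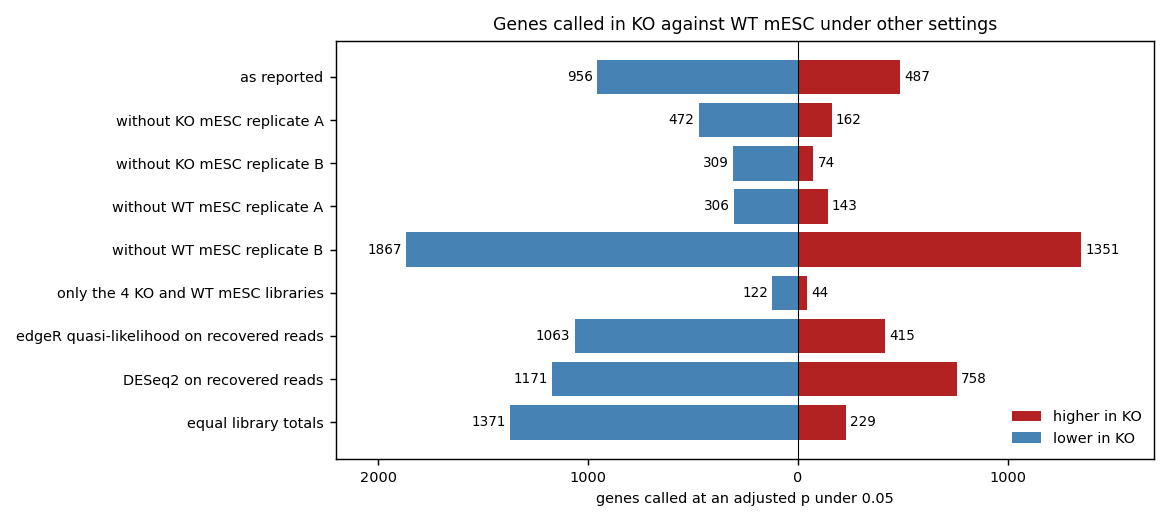
Number of genes called higher (right of 0) and lower (left of 0) in KO mESC for the fit as reported, for fits that leave out 1 library, and for other fits and scalings. The count lower in KO exceeds the count higher in KO in each of the 9 settings drawn.

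The largest increases in KO were in non-coding RNAs of the Dlk1-Dio3 imprinted cluster on chromosome 12, whose maternal copy makes a chain of non-coding RNAs and whose paternal copy expresses the protein-coding genes. Rian, a host transcript of small nucleolar RNAs, had normalised counts of 3159 and 3094 in KO against 65.2 and 40.7 in WT (log2 5.90 ± 0.21, adjusted p = 9.84e-09). Meg3, the first long non-coding RNA of the chain, had 214 and 204 in KO against 3.56 and 9.16 in WT (log2 4.95 ± 0.37, adjusted p = 2.35e-05). Both RNAs were scarce in WT beside their level in KO, with no overlap. Mirg, a microRNA host, had 78.4 and 74.2 in KO against 0 and 1.02 in WT. AF357359, a small nucleolar RNA, had 70.6 and 72.8 in KO against 0 and 1.02 in WT. With 1 WT read each over both libraries, the ratios of KO to WT were 140 for Mirg (95% counting interval 24.6 to 5562) and 131 for AF357359 (23 to 5209).

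These RNAs and Dio3, which encodes a deiodinase that inactivates thyroid hormone, formed a run of 5 neighbouring tested genes all called higher in KO. Dio3 had 149 and 232 in KO against 46.2 and 78.4 in WT (log2 1.61 ± 0.37, adjusted p = 0.0185), a call lost without KO replicate B (adjusted p = 0.186) or WT replicate A (adjusted p = 0.161). Dlk1, the paternally expressed gene at the other end of the cluster, had 24.7 and 17.5 in KO against 26.1 and 15.3 in WT and did not pass (adjusted p = 0.933). Over the 9 tested genes listed for the cluster and its flanks, 5 were higher and 1 was lower, with a median log2 change of 0.53. Without KO replicate B or WT replicate A 3 remained higher and none lower.

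Imprinted genes elsewhere moved in both directions. Of 49 tested, 10 were lower and 5 higher, with a median of 0, and 4 lower genes and no higher gene kept their call in all 4 leave-one-out fits. Grb10, which encodes an adaptor that restrains growth factor receptors and lies on chromosome 11, had 615 and 544 in KO against 3792 and 2858 in WT (log2 -2.51 ± 0.16, adjusted p = 6.55e-06). Usp29, a gene of the Peg3 domain on chromosome 7, had 134 and 152 in KO against 402 and 513 in WT (log2 -1.66 ± 0.22, adjusted p = 0.000768). Phlda2, a maternally expressed gene that restrains placental growth, had 921 and 893 in KO against 2169 and 2747 in WT (log2 -1.43 ± 0.18, adjusted p = 0.000474). Inpp5f had 160.2 and 159 in KO against 263 and 289 in WT (log2 -0.78 ± 0.14, adjusted p = 0.00542). For these 4 genes each KO library lay below both WT libraries. H19, a maternally expressed long non-coding RNA outside the naming rule and chosen after its values were seen, had 56 and 85 in KO against 16.6 and 1.02 in WT. Its 3.55 ± 0.71 log2 increase (adjusted p = 0.00896) was lost without KO replicate B (adjusted p = 0.0829), and the WT libraries differed widely from each other.

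**Figure D3:**
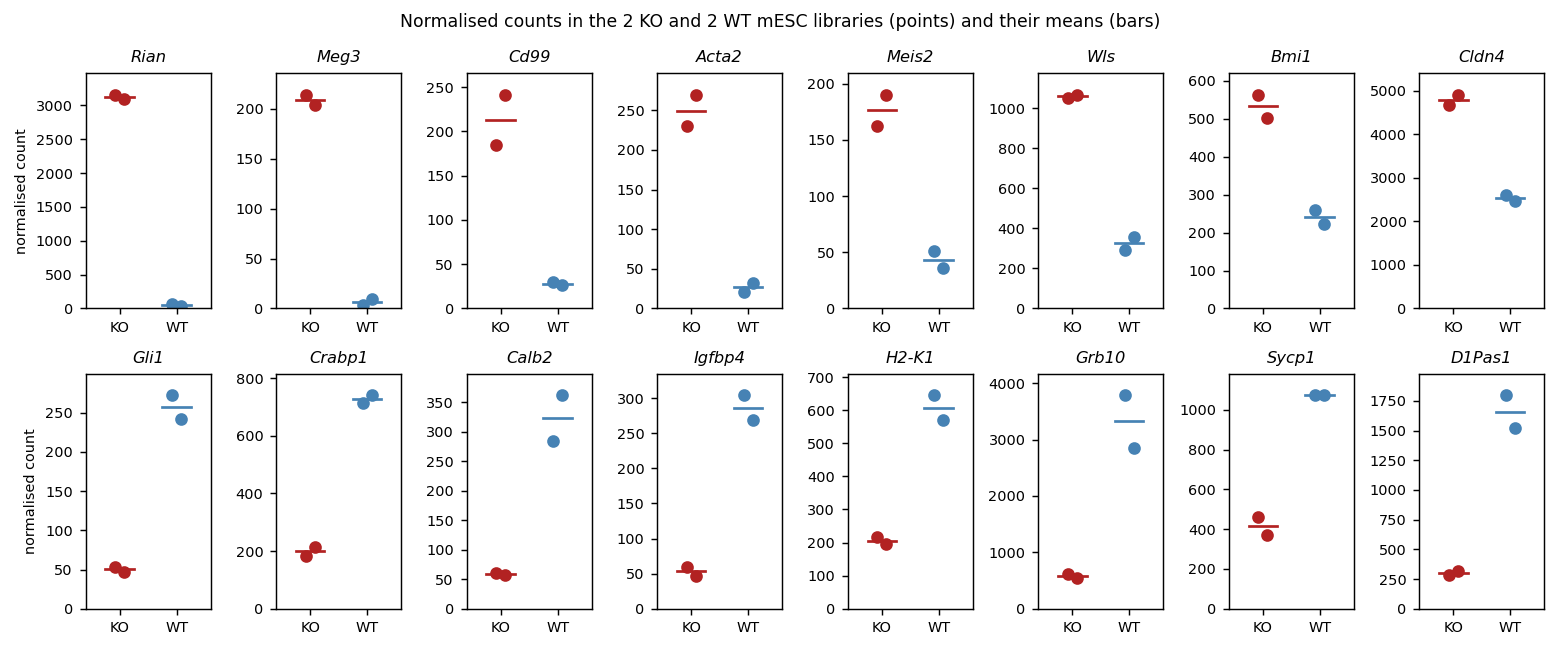
Normalised counts of 16 genes named in the text in each KO library (left, red) and WT library (right, blue), with a bar at the group mean and axes from 0. Rian had 3159 and 3094 in KO against 65.2 and 40.7 in WT. The genes were chosen among called genes, by a rule that for the largest changes asked for groups without overlap, so the separation of KO and WT is a description.

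Among genes that report on ERK activity, of 19 tested feedback inhibitors and ETS targets 7 were lower in KO and 1 higher (median log2 -0.44), and 6 of the 7 kept their call in every leave-one-out fit. Dusp4, a nuclear phosphatase of ERK, had 47.1 and 59.4 in KO against 165 and 154 in WT (log2 -1.57 ± 0.23, adjusted p = 0.00127). Etv4, an ETS factor induced by FGF, had 2455 and 2361 in KO against 5086 and 3975 in WT (log2 -0.90 ± 0.14, adjusted p = 0.00232), and it lies on chromosome 11. In both genes each KO library lay well below each WT library. Ccnd1, Spry4, Myc and Dusp6 were the other 4, with log2 changes of -1.41, -1.34, -1.22 and -0.88. Among 18 immediate early genes 3 were lower and 1 higher. Egr1, a zinc finger factor induced by ERK within minutes, changed most, at 17.9 and 10.8 in KO against 151 and 162 in WT (log2 -3.39 ± 0.34, adjusted p = 0.000141). Leaving out WT replicate A left 1 immediate early gene lower.

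Lif was higher and 5 other members of the LIF pathway were lower. Lif and Stat3 lie on chromosome 11. When its tested genes were split in their order into 10 bins, 15 genes were higher and 6 lower in the bin of Lif, and none was higher and 34 were lower in that of Stat3. Lif, the cytokine itself, had 212 and 167 in KO against 90.1 and 53.9 in WT (log2 1.42 ± 0.25, adjusted p = 0.00476), and its calls held in all 4 leave-one-out fits. Of the 15 tested members of the pathway 5 were lower (median log2 -0.57), namely Lifr, Stat3, Pim1, Socs2 and Junb, with log2 changes between -1.03 for Junb and -0.57 for Socs2. Of these 5, 3 stayed lower without KO replicate A, none without KO replicate B or WT replicate A, and 7 members were lower without WT replicate B. Among 14 FGF ligands and receptors 3 were lower (median -0.54), 1 of them in every leave-one-out fit. This was Fgf15, a ligand induced as mESC leave the naive state, at 2.24 and 4.05 in KO against 15.4 and 23.4 in WT (log2 -2.31 ± 0.32, adjusted p = 0.000963).

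Gli1, a target gene of Hedgehog signalling, was lower in KO. This transcription factor, itself a readout of the pathway, had 53.8 and 47.2 in KO against 273 and 242 in WT (log2 -2.33 ± 0.28, adjusted p = 0.000419). Both KO libraries lay far below both WT libraries. Ptch1, the main receptor and also a target, had 562 and 530.1 in KO against 763 and 452 in WT and did not pass (95% interval of the log2 difference -0.60 to 0.39). Of 13 tested members 3 were lower and none higher (median -0.16), among them Smo, the signal transducer, at a log2 change of -0.57. The Smo call was lost without KO replicate B or WT replicate A (adjusted p = 0.157 and 0.0966).

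The retinoic acid list split. Crabp1, which binds retinoic acid in the cytosol, had 184 and 216 in KO against 712 and 742 in WT (log2 -1.86 ± 0.16, adjusted p = 4.04e-05). Meis2, a homeobox partner of Hox proteins that retinoic acid induces, had 162 and 190.2 in KO against 51 and 35.6 in WT (log2 2.02 ± 0.26, adjusted p = 0.000685). Stra8, the retinoic acid target that starts meiosis, had 464 and 353 in KO against 1257 and 1517 in WT (log2 -1.77 ± 0.23, adjusted p = 0.000706). Crabp1 and Stra8 were thus lower and Meis2 higher in both KO libraries. Of 17 tested members 2 were lower and 2 higher, with a median of -0.42, and 4 were lower without WT replicate B. Leaving out KO replicate A or WT replicate A left 1 higher, which was Meis2.

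Other signalling lists held few calls that survived every leave-one-out fit. In the Wnt list 1 of 25 was lower and 1 higher, which is 8% called against 9.41% of all tested genes. Tcf7, a nuclear partner of beta-catenin on chromosome 11, had 729 and 664 in KO against 1662 and 1289 in WT (log2 -1.07 ± 0.14, adjusted p = 0.000693), and Sp8, a zinc finger target, had 47.1 and 51.3 in KO against 11.9 and 9.16 in WT (log2 2.13 ± 0.33, adjusted p = 0.00231). In the Nodal list 3 of 18 were lower, Lefty2 with its call in every fit (log2 -1.27 ± 0.12, adjusted p = 0.000121). Lefty1, its neighbour and likewise a Nodal inhibitor, had 1085 and 927 in KO against 1808 and 1829.6 in WT, and lost its call only without KO replicate B (adjusted p = 0.0713). Bmp4, a ligand that mESC use against neural fate, had 493 and 552 in KO against 1351 and 1177 in WT (log2 -1.27 ± 0.23, adjusted p = 0.00547) and lost its call only without WT replicate A (adjusted p = 0.0540). Besides Bmp4, Id3 was lower among 16 BMP genes, and 2 of 14 Notch genes were lower. Without KO replicate B 1 Nodal, 1 BMP and no Notch gene remained, and without WT replicate B the counts lower were 4 for Nodal, 3 for BMP, 4 for Notch and 3 for Wnt.

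**Figure D4:**
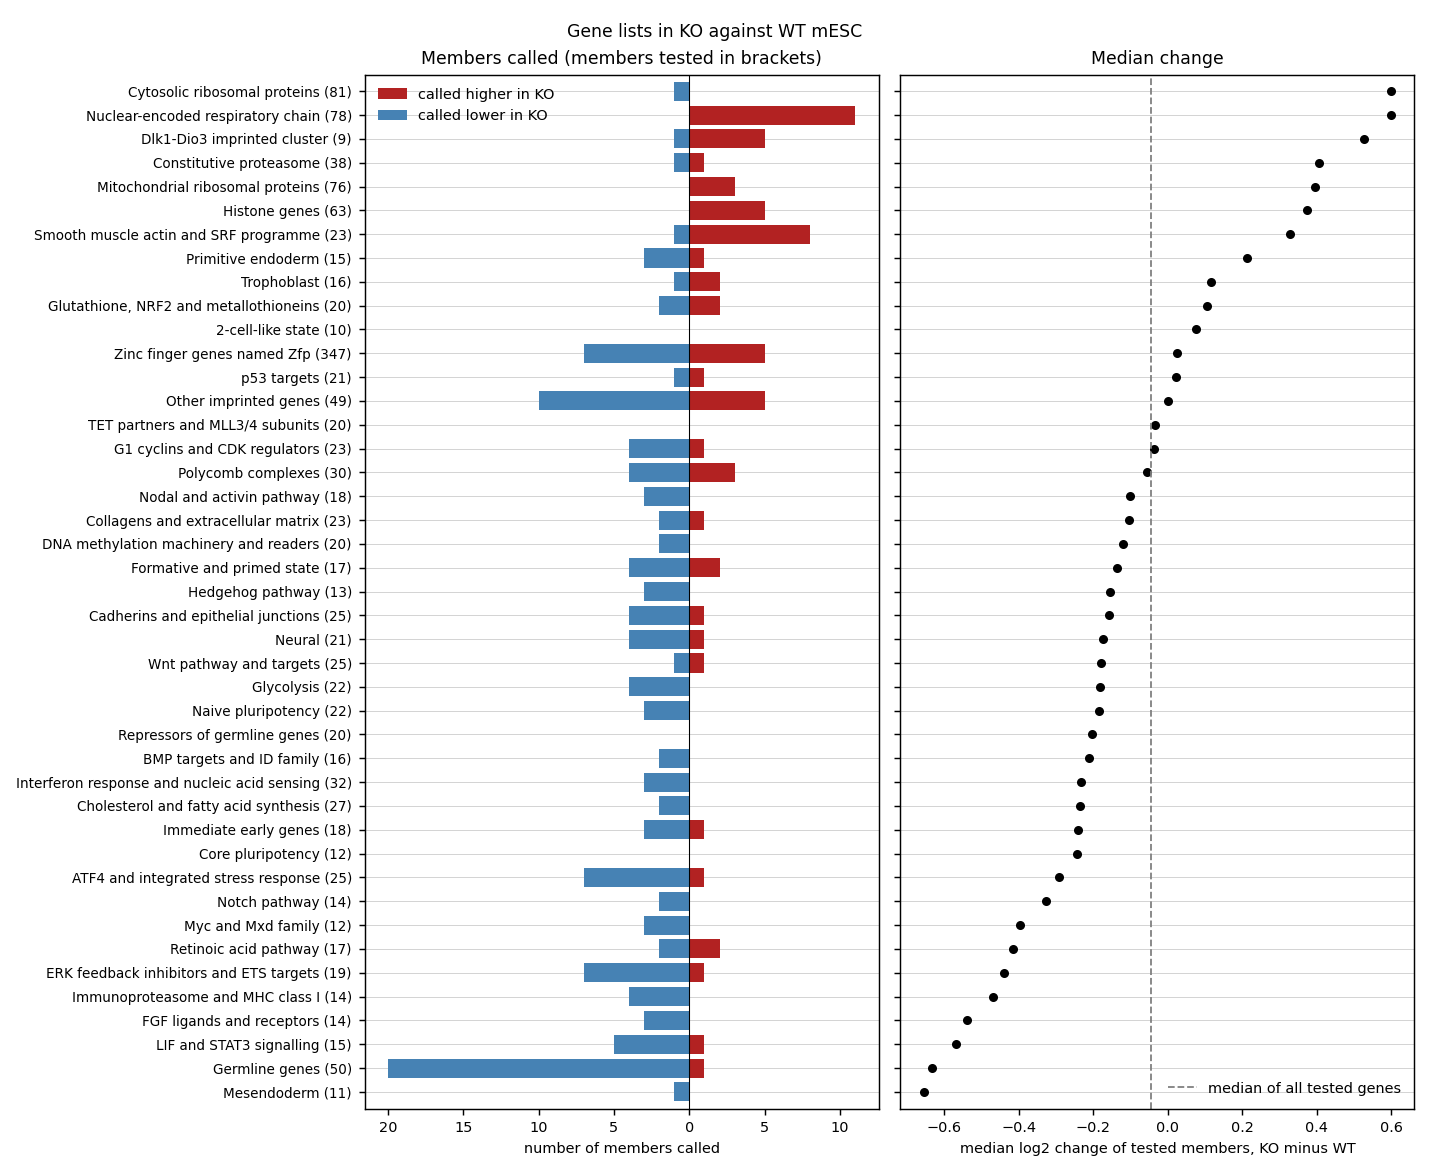
Members called higher (right, red) or lower (left, blue) in KO mESC in the 43 lists with at least 9 tested members (left panel, number tested in brackets) and the median log2 change of the tested members (right panel, dashed line at the median of all tested genes). Germline genes had 20 lower and 1 higher of 50 tested, and the respiratory chain 11 higher of 78.

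Germline genes held the largest number of lower calls of any list, though the lists differ in size. Of the germline genes 42% were called, against 9.41% of all tested genes and 42.1% of the ERK feedback and ETS list. Of 50 tested, 20 were lower and 1 higher in KO (median log2 -0.63), and 41 of the 50 had a change below 0. Leaving out KO replicate A, KO replicate B or WT replicate A lowered the count to 11, 12 and 12 in that order, and 9 held in every leave-one-out fit. Sycp1, a part of the synaptonemal complex that joins meiotic chromosomes, had 461 and 372 in KO against 1073 and 1075 in WT (log2 -1.37 ± 0.18, adjusted p = 0.000719). Meioc, which keeps germ cells in meiosis and lies on chromosome 11, had 264 and 244 in KO against 618 and 559.7 in WT (log2 -1.21 ± 0.16, adjusted p = 0.000916). Piwil2, a Piwi protein that carries small RNAs against transposons, had 403 and 376 in KO against 991 and 909 in WT (log2 -1.28 ± 0.14, adjusted p = 0.000309). In these genes the WT values were more than 2-fold the KO values in every pairing of libraries. Hormad2, a meiotic checkpoint gene outside the naming rule, was the single member higher, at 1213 and 1388 in KO against 449 and 554 in WT (log2 1.38 ± 0.20, adjusted p = 0.00121). It lies on chromosome 11 in the bin of Lif, where 15 genes were higher and 6 lower. Of 20 known repressors of germline genes, including E2f6, Mga, L3mbtl2 and Setdb1, none was called with limma, edgeR or DESeq2 (median -0.20), and 2 had an unadjusted limma p under 0.05.

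The X-linked Xlr3 and Xlr4 genes, close copies whose reads the counting may have split, formed the core of a run of 4 neighbouring genes all lower in KO. Pnma5, the first of the run, had 195 and 192 in KO against 449 and 484 in WT (log2 -1.27 ± 0.21, adjusted p = 0.00319). Xlr3a and Xlr3b followed with log2 changes of -3.15 and -2.63, and Xlr4a with -3.35, a call kept only without KO replicate B (adjusted p = 0.0335). Testis genes outside the list were also among the largest decreases. D1Pas1, an RNA helicase of germ cells, had 281 and 314 in KO against 1799.5 and 1520.2 in WT (log2 -2.47 ± 0.18, adjusted p = 2.35e-05). Clgn, a chaperone of sperm membrane proteins, had 47.1 and 35.1 in KO against 213 and 200.5 in WT (log2 -2.32 ± 0.22, adjusted p = 0.00011). Drc1, a part of the regulator of sperm and ciliary axonemes, had 6.72 and 12.1 in KO against 54.5 and 58 in WT (log2 -2.51 ± 0.39, adjusted p = 0.00227). Rec114, needed for meiotic DNA breaks, went the other way, at 2573 and 2846 in KO against 771 and 1025 in WT (log2 1.61 ± 0.23, adjusted p = 0.00112).

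Promoters of germline genes often carry the E-box CACGTG, the site of the MGA and MAX repressor dimer. It is shown in capitals in the promoters (RefSeq, GRCm38, 250 bases before the start to 50 after it) of 3 lower genes.
Sycp1 (chr3:102936051-102936350, minus strand): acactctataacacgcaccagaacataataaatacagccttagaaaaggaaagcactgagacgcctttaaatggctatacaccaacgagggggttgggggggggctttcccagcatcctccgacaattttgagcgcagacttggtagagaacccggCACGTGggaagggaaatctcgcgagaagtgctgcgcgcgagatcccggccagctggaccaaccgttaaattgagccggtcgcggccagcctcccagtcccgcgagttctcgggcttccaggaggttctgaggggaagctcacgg
Brdt (chr5:107330944-107331243, plus strand): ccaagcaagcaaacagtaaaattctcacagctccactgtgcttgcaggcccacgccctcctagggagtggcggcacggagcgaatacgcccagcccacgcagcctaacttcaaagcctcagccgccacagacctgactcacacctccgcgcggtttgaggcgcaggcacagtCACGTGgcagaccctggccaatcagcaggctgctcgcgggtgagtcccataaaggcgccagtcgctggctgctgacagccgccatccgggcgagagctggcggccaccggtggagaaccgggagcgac
Tdrd1 (chr19:56825959-56826258, plus strand): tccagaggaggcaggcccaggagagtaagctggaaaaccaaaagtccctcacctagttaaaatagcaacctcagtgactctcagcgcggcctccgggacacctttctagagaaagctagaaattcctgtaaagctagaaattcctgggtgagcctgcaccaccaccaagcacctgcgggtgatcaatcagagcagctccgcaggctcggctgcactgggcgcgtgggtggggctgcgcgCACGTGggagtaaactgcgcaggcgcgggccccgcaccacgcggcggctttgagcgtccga
Brdt, a bromodomain protein of meiotic and later germ cells, had 24.7 and 36.4 in KO against 87.7 and 151 in WT (log2 -1.90 ± 0.35, adjusted p = 0.00555). Tdrd1, a Tudor protein of the Piwi pathway, had 20.2 and 27 in KO against 67.6 and 45.8 in WT, but its call was lost without KO replicate A (adjusted p = 0.0860) and WT replicate A (adjusted p = 0.118). Both genes were chosen for their motif, outside the naming rule. CACGTG, read on both strands as it is its own reverse complement, was found in 17 of 52 windows of 44 germline genes, 32.7%, against 9.78% of all windows of tested genes. Among the lower members 5 of 22 windows held it, 22.7%, and among the members not called 12 of 29, 41.4%. A gene with several windows counts more than once here, and the difference was not tested. GCGGGA or its reverse complement, a site of E2F factors, stood in 32.7% of the germline windows and 34.0% of all windows of tested genes.

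Part of a contractile gene list was higher in KO. Of 23 tested genes of smooth muscle actin and other targets of the serum response factor SRF, 8 were higher and 1 lower (median log2 0.33), and 5 kept their call in every leave-one-out fit. Myl9, a myosin light chain of smooth muscle, had 324 and 339 in KO against 153 and 149 in WT (log2 1.13 ± 0.19, adjusted p = 0.00332). Tpm4, a tropomyosin, had 7356 and 7604 in KO against 3725 and 4627 in WT (log2 0.85 ± 0.13, adjusted p = 0.00229). Cald1, the actin-binding protein caldesmon, had 1174 and 1076 in KO against 639 and 639 in WT (log2 0.81 ± 0.14, adjusted p = 0.00357). The KO libraries lay above the WT libraries in each of the 3 genes. Acta2 and Tagln were the largest changes, with Acta2 at 229.7 and 269.8 in KO against 21.3 and 32.6 in WT (log2 3.19 ± 0.35, adjusted p = 0.000294) and Tagln at a log2 change of 1.95. The lower gene was Tagln2, at -0.49, a call kept only without WT replicate B (adjusted p = 0.0175). None of the 7 tested fibroblast and feeder markers was called higher beside these genes. The sum of 8 fixed markers was 195 and 160.5 in KO against 447 and 376.5 in WT, Postn was at 0 in all 4 libraries, and Thy1 made up most of the sum, at 118 and 111 in KO against 362 and 316 in WT.

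SRF binds the CArG box, which is shown in capitals in the promoters of 2 genes of this list that were higher in KO.
Myl9 (chr2:156775214-156775513, plus strand): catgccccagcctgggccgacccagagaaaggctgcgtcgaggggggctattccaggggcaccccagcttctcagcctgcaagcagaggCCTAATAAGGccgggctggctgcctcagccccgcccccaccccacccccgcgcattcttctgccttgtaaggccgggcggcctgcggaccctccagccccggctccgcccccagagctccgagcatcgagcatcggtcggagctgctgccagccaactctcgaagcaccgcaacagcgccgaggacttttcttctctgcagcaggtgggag
Actc1 (chr2:114052826-114053125, minus strand): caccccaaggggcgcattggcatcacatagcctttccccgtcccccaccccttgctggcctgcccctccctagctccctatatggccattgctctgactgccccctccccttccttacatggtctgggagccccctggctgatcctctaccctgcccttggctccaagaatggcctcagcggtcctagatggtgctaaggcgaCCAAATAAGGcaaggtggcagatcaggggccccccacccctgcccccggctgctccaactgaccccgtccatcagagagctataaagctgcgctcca
A CArG box, on either strand, was present in 6 of 24 windows of the list, 25%, against 1.32% of the windows of tested genes. The list was drawn up as SRF targets, so this difference follows in part from its choice. It stood in 2 of 8 windows of the higher members, 25%, and in 4 of 15 windows of the members not called, 26.7%. Actc1, cardiac actin, was itself low, at 13.4 and 4.05 in KO against 0 and 2.04 in WT, and its call was lost without KO replicate A (adjusted p = 0.219) and WT replicate A (adjusted p = 0.304).

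Surface and adhesion genes changed singly. Cd99, a glycoprotein of cell contacts, had 185 and 241 in KO against 29.6 and 26.5 in WT (log2 2.87 ± 0.29, adjusted p = 0.000167). Cldn4, a claudin of tight junctions, had 4687 and 4915 in KO against 2597 and 2460.4 in WT (log2 0.92 ± 0.11, adjusted p = 0.000494). Jam3, a junctional adhesion molecule, had 3500.4 and 3998 in KO against 1148 and 1439 in WT (log2 1.54 ± 0.17, adjusted p = 0.000309). These 3 genes were higher in both KO libraries, whereas P-cadherin was lower, with Cdh3 at 229.7 and 171 in KO against 715 and 506 in WT (log2 -1.59 ± 0.23, adjusted p = 0.0014). Among 25 cadherin and junction genes 4 were lower and 1 higher (median -0.16), and without KO replicate B 1 was lower. Krt8, an epithelial keratin, had 626 and 579 in KO against 333 and 329 in WT (log2 0.86 ± 0.15, adjusted p = 0.00456). Plvap, which spans the pores of endothelial cells, had 11.2 and 20.2 in KO against 99.6 and 88.5 in WT (log2 -2.56 ± 0.30, adjusted p = 0.000333), and Igfbp4, which binds insulin-like growth factors and lies on chromosome 11, had 59.4 and 47.2 in KO against 305 and 269 in WT (log2 -2.41 ± 0.22, adjusted p = 7.54e-05).

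The lower genes included some of antigen presentation. H2-K1 and H2-D1, the classical MHC class I heavy chains, are members of a gene family of close copies. H2-K1 had 217 and 194 in KO against 646 and 569 in WT (log2 -1.56 ± 0.13, adjusted p = 4.24e-05). H2-D1 had 178 and 181 in KO against 405 and 409 in WT (log2 -1.18 ± 0.15, adjusted p = 0.000655). The immunoproteasome subunit Psmb8 was scarce in KO, at 3.36 and 2.7 in KO against 22.5 and 20.4 in WT (log2 -2.48 ± 0.39, adjusted p = 0.00244). For all 3 the groups were far apart relative to the spread within each. Of 14 tested genes of the list 4 were lower and none higher (median -0.47), with 3 lower whichever 1 of KO replicate A, KO replicate B or WT replicate A was left out. Irgm1, an interferon-induced GTPase on chromosome 11, had 57.1 and 67.4 in KO against 293 and 308 in WT (log2 -2.26 ± 0.23, adjusted p = 0.00017). Across 32 genes of interferon response and nucleic acid sensing, 3 were lower and none higher. This is 9.38% called, near the 9.41% of all tested genes. Of the 3, Oasl2 kept its call in every fit (log2 -2.42 ± 0.37, adjusted p = 0.00201).

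Chromatin regulators changed in the Polycomb complexes, which silence developmental genes. Bmi1, a core subunit of Polycomb repressive complex 1, had 564 and 503 in KO against 258 and 223 in WT (log2 1.15 ± 0.15, adjusted p = 0.000752). Commd3, the neighbour of Bmi1, was higher as well, and close neighbours may share reads. Phf19, which guides Polycomb repressive complex 2 to chromatin, had 63.9 and 63.4 in KO against 185 and 152 in WT (log2 -1.38 ± 0.23, adjusted p = 0.00325). Thus Bmi1 was higher and Phf19 lower in both KO libraries. Of 30 members 4 were lower and 3 higher (median -0.06). Bmi1 and Phf19 kept their calls in every leave-one-out fit, and without KO replicate B they were the only members called. With the other libraries left out in turn, the counts were 1 higher and 4 lower without KO replicate A, 2 higher and 1 lower without WT replicate A, and 1 higher and 7 lower without WT replicate B. Hmgn1, a nucleosome-binding protein on distal chromosome 16, had 89915 and 104586 in KO against 21195 and 28880.1 in WT (log2 1.97 ± 0.19, adjusted p = 0.000121).

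No TET gene or partner was called. Of 20 TET partners and subunits of the MLL3 and MLL4 complexes none was higher or lower with limma, edgeR or DESeq2, 1 had an unadjusted limma p under 0.05, and the median log2 change was -0.04, that of all genes. Tet1 had 3323 and 3082 in KO against 4135 and 3147 in WT, and Tet2 had 1709.9 and 1648 in KO against 1740.3 and 1481 in WT. The 95% intervals of the log2 differences were -0.59 to 0.25 for Tet1, -0.32 to 0.45 for Tet2 and -0.45 to 0.12 for Ogt, the transferase that TET enzymes bind. Tet3 was scarce, with an interval of -1.63 to 0.15. Of 20 genes of DNA methylation Dnmt3a and its cofactor Dnmt3l were lower, which is 10% called against 9.41% of all tested genes. Dnmt3a had 5698 and 5780.0 in KO against 9845 and 8328 in WT (log2 -0.66 ± 0.13, adjusted p = 0.00764). Both calls held only without WT replicate B, and 5 genes of the list were lower in that fit. The maintenance methyltransferase Dnmt1 had 6227 and 5576 in KO against 8629 and 5753 in WT, with an interval of -0.62 to 0.11.

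The cells of both genotypes carried the markers of mESC. Pou5f1 had 119841 and 129356 in KO against 84005 and 102907 in WT, and Nanog had 43831 and 45752 in KO against 30695 and 37341 in WT. None of the 6 fixed mESC markers was called, and their sum was 199819 and 211042 in KO against 154299 and 174028 in WT. Of 22 naive factors 3 were lower (Klf5, Gbx2 and Pecam1) and none higher (median -0.19). Without KO replicate B or WT replicate A none of these calls held, and without KO replicate A 1 did. Without WT replicate B 4 naive factors were lower and 3 higher, edgeR called 3 lower, and DESeq2 called 3 lower and 3 higher. No core pluripotency gene of 12 was called by limma (median -0.24), 5 had an unadjusted p under 0.05, and edgeR called 1 and DESeq2 2 lower.

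Called genes of other lineages went in both directions. In KO 3 of 15 primitive endoderm genes were lower and 1 higher, and 4 of 21 neural genes were lower and 1 higher. Of 16 trophoblast genes 1 was lower and 2 higher, and 1 of 11 mesendoderm genes was lower. The shares called ran from 9.09% for mesendoderm to 26.7% for primitive endoderm, against 9.41% of all tested genes. In every leave-one-out fit 1 lower gene of each of the 4 lists and 1 higher trophoblast gene, Krt8, were called. T, the mesoderm factor, had 225 and 171 in KO against 569 and 665 in WT (log2 -1.64 ± 0.26, adjusted p = 0.00232). Amn, of primitive endoderm, had 21.3 and 22.9 in KO against 64 and 65.1 in WT (log2 -1.51 ± 0.28, adjusted p = 0.00674). Tubb3, a neuronal tubulin, had 1938 and 1749.5 in KO against 3606 and 3134 in WT (log2 -0.87 ± 0.13, adjusted p = 0.00194). Tal1, a factor of blood and endothelium, had 11.2 and 13.5 in KO against 51 and 51.9 in WT (log2 -1.98 ± 0.31, adjusted p = 0.00227). All 4 were lower in both KO libraries. Sox1, a transcription factor of the early neural plate, went the other way, at 51.5 and 45.9 in KO against 20.2 and 10.2 in WT (log2 1.69 ± 0.34, adjusted p = 0.00918), a call lost without KO replicate A (adjusted p = 0.0564) and KO replicate B (adjusted p = 0.0510). Dab2, an endocytic adaptor of primitive endoderm, was higher as well (log2 1.40 ± 0.37, adjusted p = 0.0323), a call kept only without WT replicate A (adjusted p = 0.0135). The summed level of 4 neural markers, mostly Tubb3, was 2029 and 1829 in KO against 3680 and 3214 in WT. The summed level of 5 primitive endoderm markers was 52.7 and 47.2 in KO against 79.4 and 40.7 in WT, and that of 4 trophoblast markers 116.5 and 156.5 in KO against 173 and 167 in WT. Cdh5, an endothelial marker, was at 0 in all 4 libraries. Calb2, a calcium buffer of neurons, had 60.5 and 56.7 in KO against 285 and 362 in WT (log2 -2.44 ± 0.29, adjusted p = 0.000419), and Kif1a, a motor of axonal transport, had 12.3 and 16.2 in KO against 98.4 and 53.9 in WT (log2 -2.29 ± 0.27, adjusted p = 0.000343). Whether fewer cells of a type or less RNA per cell lay behind any such value cannot be told apart in bulk samples.

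Cell cycle and growth factor genes included 3 strong changes. Ccnd2, a G1 cyclin, had 109 and 97.1 in KO against 746 and 597 in WT (log2 -2.69 ± 0.21, adjusted p = 3.39e-05). Myb, a transcription factor of cycling cells, had 499.7 and 432 in KO against 199 and 142 in WT (log2 1.46 ± 0.18, adjusted p = 0.000427). Wls, which carries Wnt ligands to the cell surface, had 1053 and 1068 in KO against 293 and 357 in WT (log2 1.71 ± 0.14, adjusted p = 3.39e-05). Ccnd2 was thus lower, and Myb and Wls were higher. Of 23 G1 cyclins and their regulators 4 were lower and 1 higher (median -0.04), and leaving out any of KO replicate A, KO replicate B and WT replicate A left Ccnd1 and Ccnd2 as the 2 lower.

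The metabolic genes called lower included members of glycolysis and of the response to amino acid stress. Slc16a3, a lactate exporter on chromosome 11, had 310.4 and 206 in KO against 1005 and 946 in WT (log2 -1.94 ± 0.17, adjusted p = 4.68e-05). Pfkp, the platelet-type phosphofructokinase of glycolysis, had 2287 and 2183 in KO against 5377 and 4710.2 in WT (log2 -1.17 ± 0.15, adjusted p = 0.000528). Both were lower in both KO libraries. Of 22 glycolysis genes 4 were lower and none higher (median -0.18), with 2 lower without KO replicate B or WT replicate A. Of 25 genes of ATF4 and the integrated stress response 7 were lower and 1 higher (median -0.29). Chac1, which degrades glutathione, was lower (log2 -1.48 ± 0.17, adjusted p = 0.000322), whereas Cth, which makes cysteine, had 8479 and 9322 in KO against 4774 and 5219 in WT (log2 0.83 ± 0.13, adjusted p = 0.0024). Without KO replicate A, KO replicate B or WT replicate A the count lower was 4, 2 and 3 in that order. Gpx2, a glutathione peroxidase, had 733 and 728 in KO against 1585 and 1602 in WT (log2 -1.12 ± 0.15, adjusted p = 0.00075). Nags, which makes the activator of the urea cycle and lies on chromosome 11, had 7.84 and 8.09 in KO against 47.4 and 58 in WT (log2 -2.58 ± 0.35, adjusted p = 0.000963). Of 27 genes of cholesterol and fatty acid synthesis 2 were lower (median -0.24), both kept only without WT replicate B. This is 7.41%, against 9.41% of all tested genes called and 6.23% called lower.

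Sets of short housekeeping transcripts had medians above 0, and the number of calls in them depended on the fit. The median log2 change was 0.60 for 81 cytosolic ribosomal protein genes, 0.60 for 78 nuclear-encoded respiratory chain genes, 0.41 for 38 proteasome genes, 0.39 for 76 mitochondrial ribosomal protein genes and 0.37 for 63 histone genes. All 5 medians stayed above 0 under equal totals. Respiratory chain genes had 11 calls, all higher, as against 8 when KO replicate A was left out, 1 for KO replicate B, 2 for WT replicate A and 52 for WT replicate B. Cox6b2, a testis form of a cytochrome oxidase subunit, kept its call in every fit, at 917 and 947 in KO against 462 and 457 in WT (log2 1.02 ± 0.15, adjusted p = 0.0019). Among cytosolic ribosomal protein genes limma called none higher and 1 lower, although 46 had an unadjusted p under 0.05. The count higher was 1 with edgeR, 22 with DESeq2 and 22 without WT replicate B. The lower gene was Rpl10l, a testis copy of Rpl10, at 3493 and 3964 in KO against 7294 and 10185 in WT (log2 -1.21 ± 0.19, adjusted p = 0.00232). Histone genes had 5 calls, all higher, and these were lost without KO replicate B or WT replicate A. This is 7.94%, against 9.41% of all tested genes called and 3.18% called higher.

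Transcript length and the libraries moved with this shift. The median log2 change was 0.08 in the shortest of 3 equal classes of transcript length, -0.07 in the middle class and -0.14 in the longest. Between the replicates of KO the median of A minus B was -0.08 in the shortest class and 0.06 in the longest, and between those of WT it was -0.17 and 0.19. Cytosolic ribosomal protein genes took 17.4% and 19.7% of counts in KO against 12.8% and 15.9% in WT. WT replicate A, the library with the lowest share, was also the shallowest of the 4, at 39731263 reads against 44967373 to 52657405. The part of length and of library composition in the shift was not tested.

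Position on the chromosomes also moved with the change. Chromosome 11 carried 176 lower and 24 higher genes of 1233 tested, with a median log2 change of -0.26. Outside it 463 genes were higher and 780 lower. Its tested genes were split in their order into 10 bins, and in 9 of these the median lay between -0.21 and -0.51, against 0.15 in the bin nearest the centromere, with 15 higher and 6 lower. Whichever library was left out, the medians of these 9 bins stayed below 0, between -0.16 and -0.60. In KO+Rescue mESC against WT they lay between -0.21 and -0.44, and in KO against WT at day 2 between -0.10 and -0.30. The chromosome's median deviation from the mean of the 6 mESC libraries was -0.07 and -0.08 in KO, against 0.22 and 0.12 in WT. Of the 20 largest decreases 6 lie on this chromosome. The lowest bin held a run of 4 lower neighbours, Stat5b, Stat5a, Stat3 and Ptrf, of which Ptrf, a coat protein of caveolae, kept its call in every fit (log2 -1.62 ± 0.21, adjusted p = 0.000693). Stat5b kept its call only without KO replicate A (adjusted p = 0.0322), Stat3 only without WT replicate B (adjusted p = 0.00762) and Stat5a in no such fit. The change of Efemp1 (1.71) ran against its bin median of -0.21, and that of Igfbp4 (-2.41) lay far beyond its bin median of -0.51. Grb10 (-2.51) lay in the bin with a median of 0.15, but all 15 higher genes of that bin stand before it. Most tested genes between the last of these and Grb10 had changes below 0, so the bin median does not describe its surroundings.

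Genes of distal chromosome 16 were shifted upwards. In the last 2 of 10 bins of its 452 tested genes the medians were 0.60 and 0.49, with 18 and 15 higher and none lower, whereas the first 8 bins had medians between -0.07 and 0.17. In KO+Rescue mESC against WT the last 2 bins had medians of 0.16 and 0.12, and in KO against WT at day 2 0.55 and 0.59. Wrb, which inserts tail-anchored proteins into the endoplasmic reticulum, had 9604 and 9298 in KO against 2667 and 3295 in WT (log2 1.67 ± 0.14, adjusted p = 3.39e-05). Wrb was 3.19-fold and Hmgn1, in the same bin, 3.92-fold higher. D16Ertd472e, within a run of 5 higher neighbours, had 4083 and 4087 in KO against 2585 and 2527 in WT (log2 0.68 ± 0.12, adjusted p = 0.00463). A change near the median of its bin cannot be told apart here from the shift of its surroundings.

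**Figure D5:**
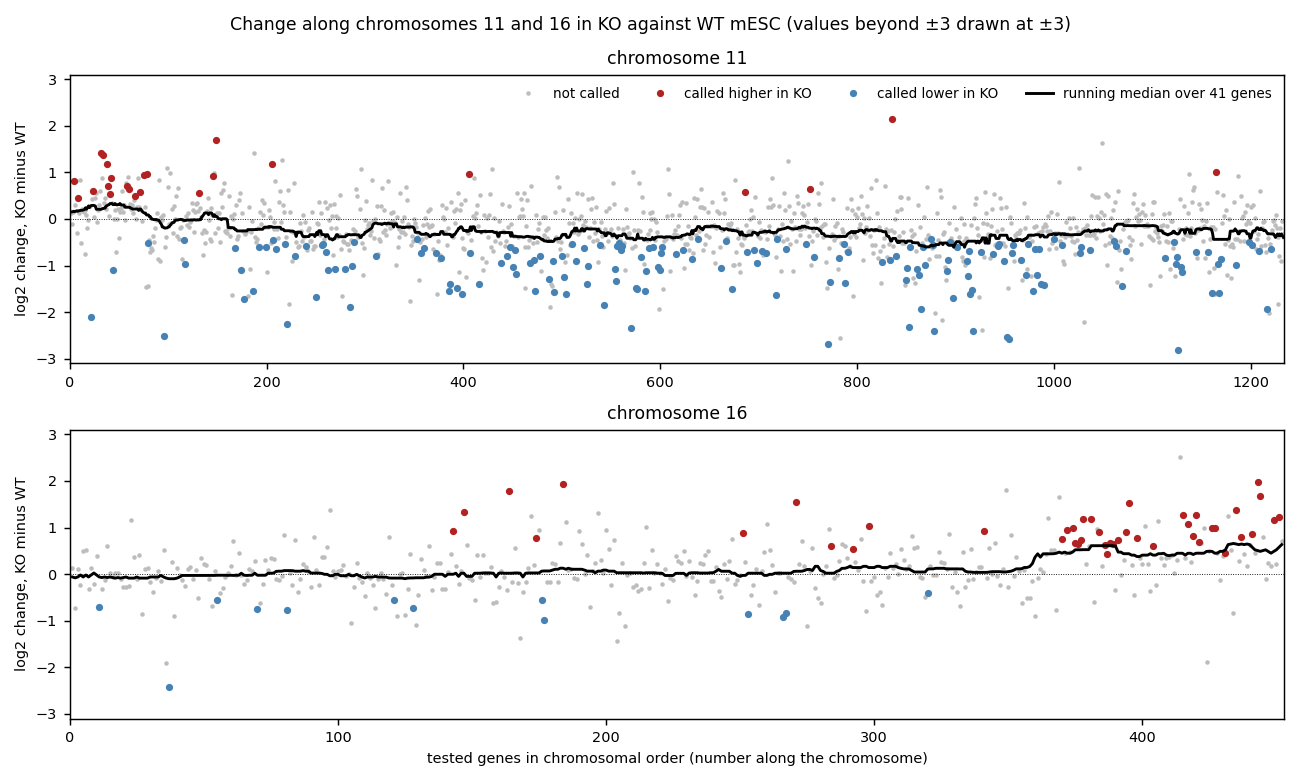
Log2 change (vertical axis, KO minus WT) of tested genes in their order along chromosomes 11 and 16 (horizontal axis, gene number), with called genes in colour and a running median over 41 genes in black. The black line lies below 0 over most of chromosome 11, and above 0 in the last 2 of 10 bins of chromosome 16, where the medians were 0.60 and 0.49.

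The remaining genes among the 20 largest changes in each direction belonged to no list. Enpp2, which makes lysophosphatidic acid, had 113 and 136 in KO against 32 and 41.7 in WT (log2 1.74 ± 0.27, adjusted p = 0.00232). Kctd12b, on the X chromosome, had 166 and 171 in KO against 48.6 and 58 in WT (log2 1.65 ± 0.22, adjusted p = 0.0007). Commd3, the neighbour of Bmi1 on chromosome 2, had 1349 and 1646 in KO against 388 and 561 in WT (log2 1.67 ± 0.23, adjusted p = 0.00103), and close neighbours may share reads. These 3 genes were higher in both KO libraries, as were Gulp1, Mex3b and Efemp1, with log2 changes of 1.58, 1.45 and 1.71. Efemp1 was the only 1 of the 20 largest increases on chromosome 11. Rasd2, a small GTPase of striatal neurons, had 11.2 and 8.09 in KO against 85.4 and 63.1 in WT (log2 -2.82 ± 0.32, adjusted p = 0.000322). Hapln4, a link protein of the extracellular matrix, had 22.4 and 10.8 in KO against 128 and 61.1 in WT (log2 -2.43 ± 0.39, adjusted p = 0.00245). Serpinf1, a secreted inhibitor of blood vessel growth on chromosome 11, had 12.3 and 6.74 in KO against 55.7 and 45.8 in WT (log2 -2.34 ± 0.31, adjusted p = 0.0007). Both KO libraries lay below both WT libraries in these 3 genes, and likewise in Stac2 and the non-coding Gm41031, with log2 changes of -2.33 and -2.82.

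After 2 days in N2B27, 791 genes were called between KO and WT, which is 5.16% of those tested. With the same direction, 257 genes were called at both stages, which is 17.8% of the mESC calls and 32.5% of the day 2 calls. Of the 20 largest increases in mESC 14 were called higher at day 2 as well, and of the 20 largest decreases 9 were called lower. The interaction of genotype and stage, a direct test of whether the KO effect differed between day 2 and mESC, called 172 genes, 1.12%. This count was 81, 48 and 99 with KO replicate A, KO replicate B or WT replicate A of mESC left out, and 346 with WT replicate B left out. Kctd12b had 446 and 421 in KO against 127 and 121 in WT after 2 days, and Ccnd2 had 374 and 496 in KO against 493 and 367 in WT. The increase of Kctd12b was thus present at both stages, while the Ccnd2 groups overlapped at day 2.

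In KO+Rescue mESC, the KO line with a re-expressed Proser1 coding sequence and again a single clone, the genes above took different levels. Myb had 499.7 and 432 in KO, 199 and 171 in KO+Rescue and 199 and 142 in WT. Meis2 had 162 and 190.2 in KO, 60.6 and 49.9 in KO+Rescue and 51 and 35.6 in WT. Both lay close to WT in KO+Rescue. Grb10 had 268 and 287 in KO+Rescue, below both KO libraries and further from WT than these. Rec114 had 1886 and 2536 in KO+Rescue, between WT and KO and nearer to KO. These values share the KO libraries with the comparison above and are given side by side without a test. The genes are examples, and they give no share of genes near WT or near KO.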

How the data were processed

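The authors deposited 1 table of normalised counts per gene, a signal made, per the paper's methods and the submitters' notes, with Trimmomatic for trimming, STAR for alignment to mm10, featureCounts for counting and DESeq2 size factors for scaling. Versions and the strand setting are not given in the sources used here, so overlapping and antisense genes are uncertain. Every deposited value was a whole multiple of its library's smallest step (tolerance 0.001), so whole reads were recovered for all 12 libraries. The methods state that Y-linked reads were removed, but such genes held values, and 6 above the minimum were left out.

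The column names give KO lines by a code, read as PROSER1 KO, and letters A and B that no label ties to a replicate number. Genes with a mean of at least 10 were tested as log2(normalised count + 1) with limma 3.58.1 in R 4.3.3 (6 group means, intensity trend, 6 residual and 6.93 prior degrees of freedom, two-sided, Benjamini-Hochberg over 15335 genes). Fold changes are on that scale, which understates low genes. Errors are SE of the model (n = 2 libraries a group), and 95% intervals use its degrees of freedom. Alternatives were edgeR 4.0.16 and DESeq2 1.42.0 on the recovered reads, other scalings, filters and pseudocounts, a replicate block, each library left out and, added after the data were seen, the count without chromosome 11. The fit was tested on simulated data.

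Named genes were Proser1, the 20 largest changes a direction that kept their call in every leave-one-out fit (mean of at least 50, no overlap), up to 6 called members of each of 48 gene lists, the most expressed member of a list without calls, and runs of at least 4 neighbours. The comparison, its genes and lists were chosen with earlier results of these data known. Lists are described by counts and medians, with no test. The values of 1 called gene are not reported here. RefSeq (GRCm38.p6) gave positions for 98.3% of tested genes and the promoter windows. GENCODE vM39 gave transcript lengths for 95.0%, and the guide was placed in GRCm39. Motif matches describe letters only. Counting intervals cover counting error alone.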

Additional observations from a re-analysis of the deposited data

Results flagged for a closer look

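For 28 of the 191 named genes the KO effect in mESC differed from that after 2 days in N2B27, by a test of the interaction of KO and stage (limma), which called 172 of 15335 genes, 1.12%. The interaction is the day 2 effect minus the mESC effect on the log2 scale. Among these 28 the adjusted p of the interaction lay between 0.00094 and 0.0479 and its SE between 0.15 and 0.50. Both effects rest on 2 libraries a group, and the count of 172 was 81, 48 and 99 with KO replicate A, KO replicate B or WT replicate A of mESC left out and 346 for WT replicate B.

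Nearly all named genes were chosen for their calls in mESC and the interaction reuses those values, so a change that is smaller at day 2 follows in part from the choice, and its direction is a description. In 22 of them a decrease in KO mESC was smaller, gone or turned round at day 2. The interaction was 3.41 for Fgf15, 2.94 for T, 2.71 for Ccnd2, 2.61 for Kif1a, 2.42 for Nags, 2.27 for Gli1, 2.13 for D1Pas1, 2.12 for Rasd2, 2.04 for Thy1 and 2.02 for Tal1. T was called in opposite directions, with log2 changes of 1.30 at day 2 and -1.64 in mESC. For Gli1 the values were -0.06 at day 2 and -2.33 in mESC, and for Ccnd2 0.02 and -2.69. The interaction was 1.95 for Slc16a3, 1.91 for Chac1, 1.91 for Clgn, 1.85 for Grb10, 1.44 for Zfp423, 1.43 for Usp29, 1.27 for Zfp334, 1.25 for Myc, 1.18 for Crabp1, 0.96 for Inpp5f, 0.95 for Smad7 and 0.83 for Mthfd2. The mESC call of Smad7 was kept only without WT replicate B, and that of Mthfd2 was lost without KO replicate B (adjusted p = 0.0540).

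A negative interaction stood in 6 genes. Cldn4 was called higher in KO mESC and lower in KO at day 2 (-1.62), as was Gstp1 (-1.20), whose mESC call (adjusted p = 0.0472) was kept only without WT replicate B. Nqo1 (-1.35) and Jam3 (-1.13) were called higher in mESC and missed the threshold at day 2. Their log2 changes at day 2 were -0.54 for Nqo1, against 0.81 in mESC, and 0.41 for Jam3, against 1.54 in mESC. The mESC call of Nqo1 was kept only without WT replicate B. Pecam1 (-1.17) and Gpx2 (-1.02) were lower in KO at both stages and more so at day 2, and the mESC call of Pecam1 was lost without KO replicate B (adjusted p = 0.248) and WT replicate A (adjusted p = 0.155).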

How the results depend on the processing

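The 1443 calls (487 higher, 956 lower) were 383 to 3218 with 1 library left out (74 to 1351 higher, 306 to 1867 lower), 166 when the fit held just the 4 libraries compared (44 higher, 122 lower) and 943 with no filter on low values (298 higher). The calls higher in KO were also 229 with equal totals, 758 with DESeq2 and 277 without the intensity trend. Without the genes of chromosome 11, 1243 calls were left. The interaction's 172 calls were 48 to 346 with 1 library left out, 105 with no filter, 99 with equal totals and 414 with DESeq2. Column letters do not pair the libraries by any label, and deviations of same-letter KO and WT mESC libraries correlated at 0.168 across genes. A replicate block by letter gave 3651 calls (1765 higher, 1886 lower) and 498 interaction calls, and called higher 58 of 81 cytosolic and 40 of 76 mitochondrial ribosomal protein genes and 55 of 78 respiratory chain genes. Uncalled values turned round for Cbx3 (-0.083) and Eif1a (-0.047) under equal totals and for Pcdhgc3, at -0.43 to 0.012 with 1 library left out, the upper value without KO replicate B. Among 191 named genes, 120 fell short of the threshold with the 4 libraries alone, 87 without KO replicate B, 78 without WT replicate A, 60 without KO replicate A and 2 with DESeq2. The cause of these changes was not tested. With 2 libraries a group, a change that missed the threshold may still be present.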
